A study of Mus musculus with 10 samples.

Results

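The genes described here handle long-chain fatty acids and cholesterol in the brain. Elovl2 and Lcat came first, because both were higher in Dp1Yey than in control hippocampi in this same comparison, and 8 others were added by function: the elongase genes Elovl5 and Elovl6, the desaturase genes Fads1 and Fads2, and Apoe, Abca1, Soat1 and Cyp46a1 of cholesterol handling. Of the 10 genes, 9 had a probe set annotated to them alone, 1 probe set each, among the 19938 genes measured. Soat1 was not analysed here, because no probe set was annotated to it in the platform table used. All 9 lie outside the duplicated interval and are present in 2 copies, and all 9 lay above the background level. Since Elovl2 and Lcat were chosen for their rise, their values are given as a description with no test, and the question was whether the 7 others moved with them.

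The hippocampal transcriptome (left and right hippocampus together) was measured in 10 male mice aged 16 weeks, 1 mouse to each Affymetrix Mouse Gene 1.0 ST array. The Dp1Yey line, a model of Down syndrome, has a second tandem copy of the Lipi to Zbtb21 segment on 1 of its chromosomes 16 (Mmu16), so genes within it are in 3 copies. There were 5 Dp1Yey mice and 5 control littermates without the duplication. The labels give a C57BL/6N background, the study's text another C57BL/6 substrain, and this was not settled here. Values are log2 intensities after robust multi-array averaging (RMA), so a difference of 1 is a change of 2-fold.

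The brain makes its own cholesterol, because lipoproteins of the blood do not cross the blood-brain barrier, and in the adult brain astrocytes are a main source. Astrocytes load cholesterol and phospholipid through the transporter Abca1 onto particles built on Apoe. Lcat esterifies the cholesterol on these particles, Soat1 esterifies cholesterol inside cells, and the neuronal hydroxylase Cyp46a1 turns cholesterol into a form that can leave the brain. Polyunsaturated fatty acids are made from dietary precursors by alternating desaturation, by Fads1 and Fads2, and elongation, by Elovl5 and Elovl2. Elovl2 carries out the late steps on the way to docosahexaenoic acid, and Elovl6 lengthens saturated and monounsaturated chains.

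The promoters of Elovl2, Lcat and Elovl5 are shown to set their sequence beside their levels. The groups did not overlap for these 3 genes, but Elovl2 and Lcat had been chosen for their rise. Of all genes, 2.40% were apart with Dp1Yey higher. The sequences are from RefSeq (GRCm38.p6, the assembly known as mm10), run 5′ to 3′ on the strand of the gene, and span 250 bases before and 50 bases after the annotated start. Capitals mark the GC box (GGGCGG), the CCAAT box (printed ATTGG where it lies on the other strand), the E-box (CACGTG) and the cAMP response element (TGACGTCA). Elovl2 is read from chr13:41220354-41220653 on the minus strand, Lcat from chr8:105943353-105943652 on the minus strand and Elovl5 from chr9:77917115-77917414 on the plus strand.
Elovl2: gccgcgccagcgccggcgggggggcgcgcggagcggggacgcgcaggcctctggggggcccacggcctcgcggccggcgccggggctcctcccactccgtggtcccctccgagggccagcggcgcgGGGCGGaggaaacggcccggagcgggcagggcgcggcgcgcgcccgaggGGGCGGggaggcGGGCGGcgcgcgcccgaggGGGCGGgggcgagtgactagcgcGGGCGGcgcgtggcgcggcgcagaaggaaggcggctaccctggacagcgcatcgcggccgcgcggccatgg
Lcat: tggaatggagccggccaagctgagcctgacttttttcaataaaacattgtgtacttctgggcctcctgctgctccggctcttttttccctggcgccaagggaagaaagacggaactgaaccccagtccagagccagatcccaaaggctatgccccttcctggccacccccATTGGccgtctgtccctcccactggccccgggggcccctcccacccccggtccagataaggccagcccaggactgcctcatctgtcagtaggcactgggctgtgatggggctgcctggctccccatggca
Elovl5: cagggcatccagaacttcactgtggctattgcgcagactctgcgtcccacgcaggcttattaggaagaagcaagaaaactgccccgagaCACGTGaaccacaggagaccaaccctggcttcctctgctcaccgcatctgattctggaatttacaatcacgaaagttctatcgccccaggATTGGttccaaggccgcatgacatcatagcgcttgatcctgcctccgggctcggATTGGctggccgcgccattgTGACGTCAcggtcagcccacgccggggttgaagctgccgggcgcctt
The Elovl2 window held 5 GC boxes and was 84.7% G and C. A GC box on either strand was found in 35.7% of the 32851 promoters in the table, and 5 or more in 2.71%. The Cyp46a1 window held 6 and the Abca1 window 2. The Lcat window held 1 CCAAT box, a motif found in 37.4% of promoters, and was 61.3% G and C. The Elovl5 window held 2 CCAAT boxes, 1 E-box (7.15% of promoters) and 1 cAMP response element (1.79%). A sterol response element (TCACNCCAC, found in 1.24% of promoters) and a liver X receptor element (2 AGGTCA half-sites with a spacer of 4 bases, 0.0152%) were searched on both strands and matched none of the 3 windows. No motif was found in both the Elovl2 and the Lcat window. A match describes letters only, and the absence of one says nothing about a factor.

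Elovl2 (Entrez 54326, chromosome 13, 41182382 to 41220403, mm10) was 1.23-fold higher in Dp1Yey hippocampi. Its log2 values were 8.20, 8.23, 8.12, 8.15 and 8.27 in Dp1Yey replicates 1 to 5 and 7.88, 7.86, 7.92, 7.88 and 7.92 in control replicates 1 to 5. Each Dp1Yey mouse lay above each control mouse, with 0.20 between the lowest Dp1Yey and the highest control value. The group means were 8.19 ± 0.057 and 7.89 ± 0.028 (SD, n = 5 each), and the difference was 0.30 on the log2 scale.

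Lcat (Entrez 16816, chromosome 8, 105939551 to 105943402) was 1.48-fold higher. Its log2 values were 10.68, 10.83, 10.77, 10.64 and 10.98 in Dp1Yey replicates 1 to 5 and 10.22, 10.12, 10.21, 10.16 and 10.38 in control replicates 1 to 5. The groups lay apart by 0.26, and replicate 5 was the highest in either group, as it was for Elovl2. The group means were 10.78 ± 0.14 and 10.22 ± 0.099 (SD, n = 5 each), which is 0.56 apart. Leaving out each array in turn gave differences of 0.28 to 0.32 for Elovl2 and 0.51 to 0.60 for Lcat.

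**Figure D1:**
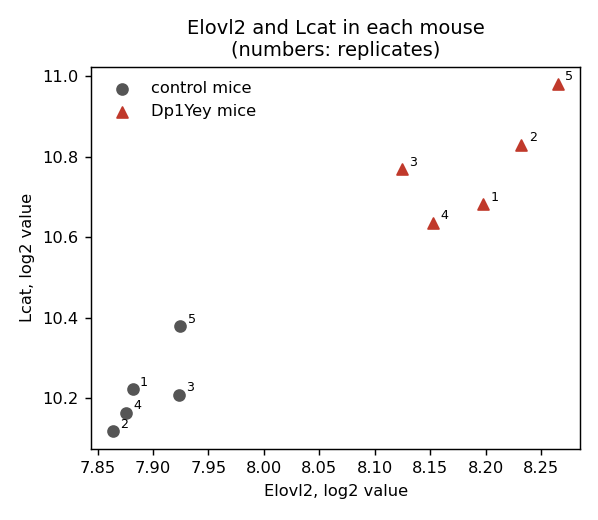
Log2 value of Lcat (vertical axis) against that of Elovl2 (horizontal axis) in the 10 hippocampi, with Dp1Yey mice as red triangles and control mice as grey circles. The 5 Dp1Yey mice lie at 8.12 to 8.27 for Elovl2 and 10.64 to 10.98 for Lcat, above and to the right of the 5 control mice, and replicate 5 is the highest of its group on both axes.

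Of the 7 genes chosen by function, 0 passed an adjusted p of 0.05 in limma in either direction. Over all 19938 genes, 0.687% were called higher and 0.110% lower. Among the 19795 genes in 2 copies these shares were 0.394% and 0.106%. At such shares, 0 calls among 7 genes do not set them apart from other genes. The rank statistic that the study used called 0 of the 7 as well. At an unadjusted p under 0.05 there was 1, Elovl5, beside 8.75% of all genes higher and 10.8% lower at that level. Of the 7 differences, 3 were above 0 and 4 below, and their median was -0.018 on the log2 scale, beside -0.015 over all genes.

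Among the elongases, Elovl5 (Entrez 68801, chromosome 9, 77917365 to 77984519) had the smallest p of the 7. Its log2 values were 10.84, 10.93, 10.94, 10.83 and 10.81 in Dp1Yey replicates 1 to 5 and 10.77, 10.69, 10.77, 10.68 and 10.74 in control replicates 1 to 5. The groups did not overlap, by a gap of 0.043, and 2.40% of all genes were likewise apart with Dp1Yey higher. The difference was 0.14 (95% CI 0.062 to 0.22) and did not pass the test over all genes (adjusted p = 0.0939, limma). Its adjusted p lay between 0.0593 and 0.634 over the 20 alternatives of the fit, and its difference between 0.11 and 0.19.

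Elovl6 (Entrez 170439, chromosome 3) spread more widely in Dp1Yey than in control mice. Its log2 values were 10.94, 10.97, 10.89, 10.80 and 10.70 in Dp1Yey replicates 1 to 5 and 10.82, 10.91, 10.92, 10.85 and 10.88 in control replicates 1 to 5. Dp1Yey replicates 1 and 2 lay above the control range and replicates 4 and 5 below it, so the groups overlapped. The difference was -0.018 (95% CI -0.13 to 0.092, adjusted p = 0.861, limma). Its sign turned without Dp1Yey replicate 5 (0.022) and with each array centred on its median (0.028), so no direction is given. Replicate 5, the highest Dp1Yey mouse for Elovl2 and Lcat, was the lowest for Elovl6.

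Both desaturase genes lie on chromosome 19. Fads1, the delta-5 desaturase (Entrez 76267), ranged from 11.80 to 11.87 in Dp1Yey and from 11.74 to 11.86 in control mice, and differed by 0.018 (95% CI -0.055 to 0.092, adjusted p = 0.779, limma). Fads2, the delta-6 desaturase (Entrez 56473), ranged from 11.61 to 11.67 in Dp1Yey and from 11.51 to 11.67 in control mice. All 5 Dp1Yey mice lay above the control mean for Fads2, but within the control range, and the difference was 0.044 (95% CI -0.032 to 0.12, adjusted p = 0.485, limma). The upper limits correspond to 1.07-fold for Fads1 and 1.09-fold for Fads2.

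The genes of cholesterol loading lay on the other side of 0, without passing the test. Apoe (Entrez 11816, chromosome 7) was 13.00, 13.03, 13.06, 13.04 and 13.02 in Dp1Yey replicates 1 to 5 and 13.12, 13.19, 13.07, 13.01 and 13.11 in control replicates 1 to 5. All 5 Dp1Yey mice lay below the control mean, and control replicate 4 lay among them. The difference was -0.067 (95% CI -0.15 to 0.012, adjusted p = 0.321, limma). Abca1 (Entrez 11303, chromosome 4) was 8.53, 8.50, 8.57, 8.57 and 8.31 in Dp1Yey and 8.83, 8.49, 8.49, 8.54 and 8.58 in control replicates 1 to 5. Dp1Yey replicate 5 was low and control replicate 1 high, and the other 8 values lay between 8.49 and 8.58. The difference was -0.090 (95% CI -0.24 to 0.060, adjusted p = 0.469, limma), and it was -0.029 without control replicate 1. The neuronal cholesterol 24-hydroxylase Cyp46a1 (Entrez 13116, chromosome 12) ranged from 10.19 to 10.38 in Dp1Yey and from 10.28 to 10.43 in control mice. It differed by -0.064 (95% CI -0.16 to 0.033, adjusted p = 0.428, limma), with 4 of 5 Dp1Yey mice below the control mean.

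**Figure D2:**
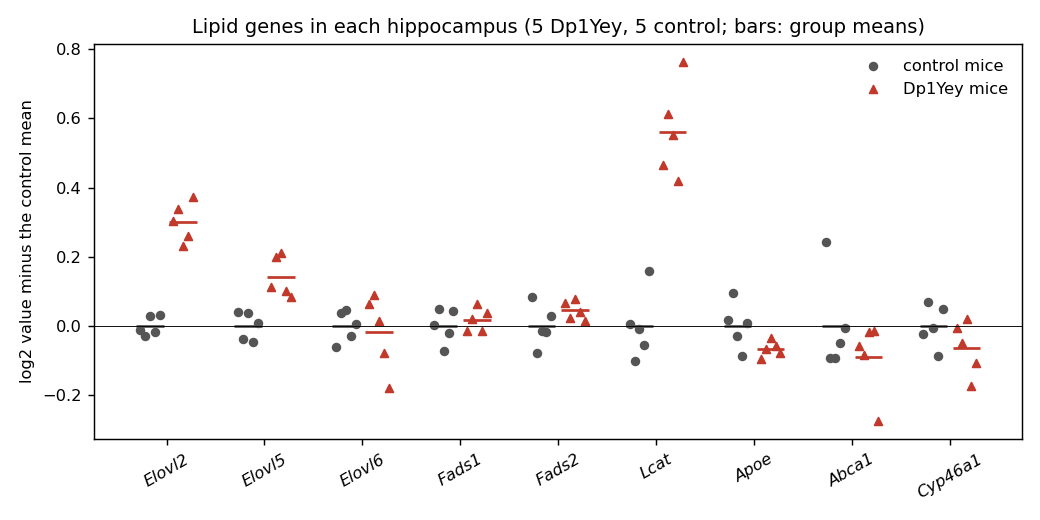
Log2 value of each of the 9 genes in each hippocampus, minus the control mean of that gene (vertical axis), with control mice as grey circles, Dp1Yey mice as red triangles and group means as bars. The groups lie apart for Elovl2, Elovl5 and Lcat and overlap for the 6 other genes.

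**Figure D3:**
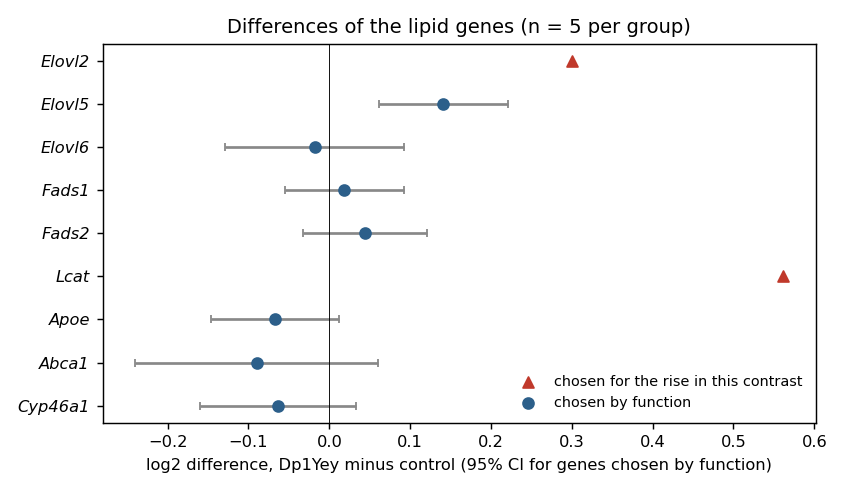
Difference of Dp1Yey minus control on the log2 scale (horizontal axis), n = 5 per group, with bars for the 95% confidence interval of the genes chosen by function. Elovl2 and Lcat, chosen for their rise, are red triangles at 0.30 and 0.56 with no interval, and the 7 genes chosen by function are blue circles between -0.090 and 0.14.

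Next, the genes whose level followed Elovl2 and Lcat most closely over the 10 arrays were listed, as a description. Pearson's r here is across 10 arrays that hold both groups, so a gene that differs between the groups gains a high r from the groups alone. Therefore r was also taken within groups, after subtracting each group's mean. The genes were picked by r over these same arrays, so their r within groups is not free of that choice. The gene most like Elovl2 was Lcat (r = 0.97, and 0.73 within groups). The next 4 were Ifnar1, Dyrk1a, Ltn1 and Rwdd2b, all in 3 copies in Dp1Yey mice (r = 0.95 to 0.96). Their r within groups was 0.25, -0.021, -0.046 and 0.30.

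For Lcat the order was different. The most alike were Tfcp2l1, a transcription factor gene (r = 0.98, within groups 0.89), Elovl2, Ccdc80, an extracellular matrix gene (0.97, within groups 0.89), Bdh2, a dehydrogenase gene (0.97, within groups 0.93), and Cpne3 of the copine family of calcium-dependent lipid-binding proteins (0.96, within groups 0.73). None of these 5 lies in the duplicated interval, though Ccdc80 lies elsewhere on chromosome 16. Their log2 differences were 0.36 for Tfcp2l1, 0.30 for Elovl2, 0.22 for Ccdc80, 0.59 for Bdh2 and 0.21 for Cpne3. The limma call was lost in 12 of 20 alternatives of the fit for Ccdc80, 8 for Cpne3, 7 for Bdh2 and 1 for Tfcp2l1. Among the 15162 genes above background, the nearest gene chosen by function was Elovl5. It had rank 389 for Elovl2 (r = 0.79) and rank 322 for Lcat (r = 0.81). Within groups the r of Elovl5 was -0.13 with Elovl2 and 0.14 with Lcat. Apoe had r = -0.65 with Elovl2 and -0.59 with Lcat, but -0.31 and -0.099 within groups.

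To place these genes among their pathways, 193 other lipid genes were written in 11 lists. Of these, 179 were measured, 1 of them (Nrip1) in 3 copies and left out, and 178 were tested. In Dp1Yey hippocampi 3 of the 178 rose and 0 fell (1.69% called, beside 0.797% of all genes and 0.500% of genes in 2 copies). The rise of 1 of the 3, Stard6, was known when the lists were written, so this share is not read against the others. An unadjusted p under 0.05 was reached by 31 higher and 11 lower genes (17.4% and 6.18%, beside 8.75% and 10.8% of all genes). Most listed genes lay above background, and the shares over all such genes were not computed. The lists were also written with earlier results known, so these shares are not read against each other. The median difference was 0.0021, beside -0.015 over all genes and -0.0082 over those above background. Of all genes 42.1% lay above control, and 46.3% of those above background, which is the measure for the counts above control in each list. The rank statistic called 8 higher and 2 lower (all genes, 2.46% and 0.993%). The 10 held these 3, with Scp2, Npc2, Msmo1, Apod and Pltp higher and Plin4 and Cyp11a1 lower.

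The 3 genes that rose belong to 3 different lists. Stard6, of the START family of lipid transfer proteins (Entrez 170461, chromosome 18), was 6.35, 6.40, 6.40, 6.35 and 6.24 in Dp1Yey and 5.90, 5.79, 6.08, 5.90 and 6.10 in control replicates 1 to 5. The groups did not overlap, and the difference was 0.40 (95% CI 0.27 to 0.53, adjusted p = 0.00817, limma). It kept its call in all 20 alternatives of the fit (adjusted p 0.0031 to 0.0494), and its rise was known when the lists were written. Stard6 had 2 probe sets, of which the brighter (10363181) was used. That identifier is close to the one of Gja1 on chromosome 10 (10363173), and where its probes align was not checked here. With the mean of both probe sets the difference was 0.41 (adjusted p = 0.00406, limma). On chromosome 18 Stard6 overlaps the RefSeq gene 4930503L19Rik, from which it was not separated here.

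Thrsp, a regulator of fatty acid synthesis in liver and fat (Entrez 21835, chromosome 7, 97412933 to 97417550), was 9.20, 9.62, 9.48, 9.28 and 9.61 in Dp1Yey and 8.97, 8.98, 9.04, 8.96 and 9.20 in control replicates 1 to 5. The lowest Dp1Yey value, in replicate 1, barely exceeded the highest control value, in replicate 5, and the difference was 0.41 (95% CI 0.23 to 0.59, adjusted p = 0.0459, limma). The call was lost without any of Dp1Yey replicates 2, 3 and 5 or control replicates 1, 2, 3 and 4 (adjusted p 0.0607 to 0.123). It was also lost with a new quantile normalisation (0.0521), array weights (0.0642), a term for the arrays' interquartile range (0.322) and without control replicates 1 and 2 together (0.149). The direction held in all 20 alternatives.

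Cideb, a lipid droplet protein best known from liver (Entrez 12684, chromosome 14, 55754052 to 55758424), was 8.38, 8.55, 8.46, 8.19 and 8.49 in Dp1Yey and 7.96, 8.08, 7.86, 7.82 and 8.22 in control replicates 1 to 5. Dp1Yey replicate 4 fell below control replicate 5, so the groups overlapped, and the difference was 0.42 (95% CI 0.24 to 0.60, adjusted p = 0.0393, limma). Its call was lost without any of Dp1Yey replicates 1, 2, 3 and 5 or control replicates 1, 2, 3 and 4 (adjusted p 0.0515 to 0.109), with a term for the arrays' interquartile range (0.255) and without control replicates 1 and 2 together (0.0873). Cideb overlaps Nop9 and Ltb4r2 in RefSeq, and its signal was not separated from theirs here.

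**Figure D4:**
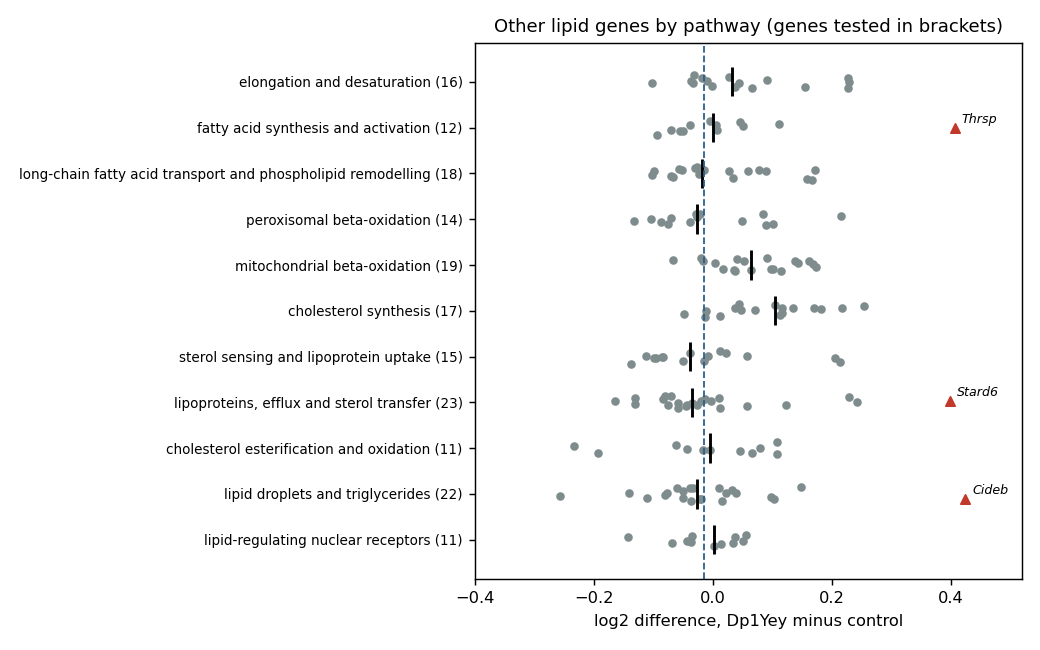
Difference of Dp1Yey minus control on the log2 scale (horizontal axis) for the 178 other lipid genes in their 11 lists, with called genes as red triangles, the others as grey circles, the median of each list as a black bar and the median of all genes as a dashed line at -0.015. The 3 called genes, Stard6, Thrsp and Cideb, lie at 0.40 to 0.42, and the list medians lie between -0.039 and 0.10.

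The elongation and desaturation list held the other enzymes of the cycle in which Elovl2 and Elovl5 work. Of its 16 genes 0 were called, 9 lay above control and 6 had an unadjusted p under 0.05 (5 higher, 1 lower), with a median of 0.032. The smallest p was that of Hsd17b12, the ketoacyl reductase of the cycle (0.23, 95% CI 0.072 to 0.38, adjusted p = 0.135, limma). The dehydratase genes of the next step, named after their values were seen, differed by 0.16 for Hacd3, 0.23 for Hacd4 and 0.23 for Hacd2 (adjusted p 0.136, 0.162 and 0.190, limma). Hacd4, at a mean log2 value of 5.47, lay close to the background level of 5.45. The 1 gene lower at an unadjusted p under 0.05 was Fads3 (-0.10, adjusted p = 0.235, limma). None of these genes passed the test. Hacd2 had 2 probe sets, the brighter of which was used, and where its probes align was not checked.

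Cholesterol synthesis had the highest list median. Of its 17 genes 0 were called, 14 lay above control, 6 had an unadjusted p under 0.05, all higher, and the median difference was 0.10. The median lay between 0.075 and 0.15 with a new quantile normalisation, median centring, the interquartile range as a covariate, without control replicates 1 and 2 together, and without each array in turn. The smallest p was that of Sc5d, an enzyme near the end of the pathway (0.17, 95% CI 0.075 to 0.27, adjusted p = 0.0935, limma). Named after their values were seen, Msmo1 differed by 0.22 (adjusted p = 0.105, limma), Idi1 by 0.25 (0.191) and Hmgcs1 by 0.10 (0.191). Idi1 had 2 probe sets, the brighter of which was used, and where its probes align was not checked.

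Mitochondrial beta-oxidation, which breaks down fatty acids, had 16 of 19 genes above control and a median of 0.063. It had 0 calls, with 7 genes at an unadjusted p under 0.05, all higher, and the smallest p belonged to Eci2, an enoyl-CoA isomerase (0.17, adjusted p = 0.104, limma). Without one of the arrays its median lay between 0.023 and 0.098. Peroxisomal beta-oxidation, which shortens very long chains and completes docosahexaenoic acid, had 5 of 14 genes above control and a median of -0.028. It had 0 calls, with the smallest p for Scp2, a sterol carrier and thiolase (0.21, adjusted p = 0.0991, limma).

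The remaining 7 lists had medians between -0.039 and 0.00086. In sterol sensing and lipoprotein uptake, 5 of 15 genes lay above control (median -0.039) and 0 were called, with the smallest p for Npc2, a lysosomal cholesterol carrier (0.20, adjusted p = 0.0939, limma). Npc2 was called without control replicate 5 (adjusted p = 0.0387). In lipoproteins, efflux and sterol transfer, 7 of 23 lay above control (median -0.036), and Stard6 was the 1 call. Pltp, which transfers phospholipids between lipoproteins, differed by 0.23 (adjusted p = 0.206, limma) and was called without control replicate 1 (0.33, adjusted p = 0.00702) and without control replicates 1 and 2 together (0.34, adjusted p = 0.0118). In cholesterol esterification and oxidation, 5 of 11 lay above control (median -0.0056), with 0 calls and the smallest p for Cyp11a1, which lay below the background level (-0.19, adjusted p = 0.0690, limma). Cyp11a1 was called with an intensity trend and a robust prior (adjusted p = 0.0407).

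In fatty acid synthesis and activation, 6 of 12 genes lay above control (median 0.00019), with Thrsp the 1 call. In lipid droplets and triglycerides it was 9 of 22 (median -0.028), with Cideb the 1 call. In long-chain fatty acid transport and phospholipid remodelling it was 8 of 18 (median -0.019), with 0 calls and the smallest p for Lpcat2, a lysophospholipid acyltransferase (0.17, adjusted p = 0.227, limma). Among the lipid-regulating nuclear receptors it was 6 of 11 (median 0.00086), with 0 calls and the smallest p for Nr1d1, a heme-binding receptor of the circadian clock (-0.14, adjusted p = 0.261, limma).

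The cell makeup of the samples was described with marker lists. In whole tissue, fewer cells of a type and less RNA per cell cannot be told apart. Neuronal Snap25 (mean 13.60 in Dp1Yey, 13.55 in control), astrocytic Slc1a3 (11.48 and 11.42) and microglial Cx3cr1 (9.05 and 8.97) were well above background. Of 18 astrocyte markers 11 lay above control (median 0.046), and the mean of the list ranged from 10.43 to 10.50 in Dp1Yey and from 10.38 to 10.46 in control mice. Among the defining markers Gfap differed by 0.10 (adjusted p = 0.179, limma), Slc1a3 by 0.059, Aldh1l1 by 0.034 and Aqp4 by -0.046 (adjusted p 0.500 to 0.848). Of the whole list, 3 were higher and 2 lower with an unadjusted p under 0.05 (all genes, 8.75% and 10.8%). The rank statistic called 1 higher and 1 lower (all genes, 2.46% and 0.993%). Named after their values were seen, Fgfr3 differed by -0.27 with the groups apart (adjusted p = 0.0601, limma), Atp1b2 by -0.098, and S100b and Gjb6 by 0.19 each (adjusted p 0.189 to 0.264).

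The 1 astrocyte marker called was Ntsr2, a neurotensin receptor gene (0.23, 95% CI 0.13 to 0.32, adjusted p = 0.0334, limma). Ntsr2 overlaps the RefSeq gene Lpin1, from which its signal was not separated here. Its call was lost in 11 of 20 alternatives, among them the fits without any of Dp1Yey replicates 1, 2, 3 and 5 or control replicates 1, 2, 4 and 5 (adjusted p 0.0503 to 0.102). Of 13 microglia markers 12 lay above control (median 0.075), and 0 were called. The rank statistic called 3 microglia markers higher, 5 had an unadjusted p under 0.05, all higher, and in 3 the groups were apart with Dp1Yey higher. Over all genes the shares higher on these measures were 2.46%, 8.75% and 2.40%. The list mean ranged from 8.33 to 8.42 in Dp1Yey and from 8.15 to 8.33 in control mice. The part of these shifts in the values of Elovl2 and Lcat was not tested.

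Markers of the choroid plexus, which lies beside the hippocampus, lay below control in all 8 genes measured (median -0.58). Of these, 6 were lower at an unadjusted p under 0.05, beside 10.8% of all genes, and 0 were called by limma. The rank statistic called 5 of the 8 lower, beside 0.993% of all genes. The list mean was 7.20, 7.07, 6.95, 7.53 and 7.41 in Dp1Yey replicates 1 to 5 and 8.54, 7.28, 7.13, 8.16 and 8.19 in control replicates 1 to 5. Its defining marker Ttr differed by -1.57 (95% CI -3.08 to -0.047, adjusted p = 0.244, limma). The list mean of control replicates 2 and 3 lay within the Dp1Yey range, while 3 control mice lay above it. The part of this shift in the values of Elovl2 and Lcat was not tested. The median difference was 0.086 for 10 oligodendrocyte markers, -0.022 for 6 of oligodendrocyte precursors, 0.0048 for 12 of neurons, 0.051 for 11 of endothelial cells, 0.053 for 10 of meninges and fibroblasts and 0.027 for 8 of ependymal cells, with 0 genes called by limma in each. The rank statistic called higher 3 markers of meninges and fibroblasts, 2 of endothelial cells, 1 of oligodendrocytes and 1 of ependymal cells. It called 0 of neurons and 0 of precursors, and 0 lower in any of these lists. Of all genes it called 2.46% higher.

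**Figure D5:**
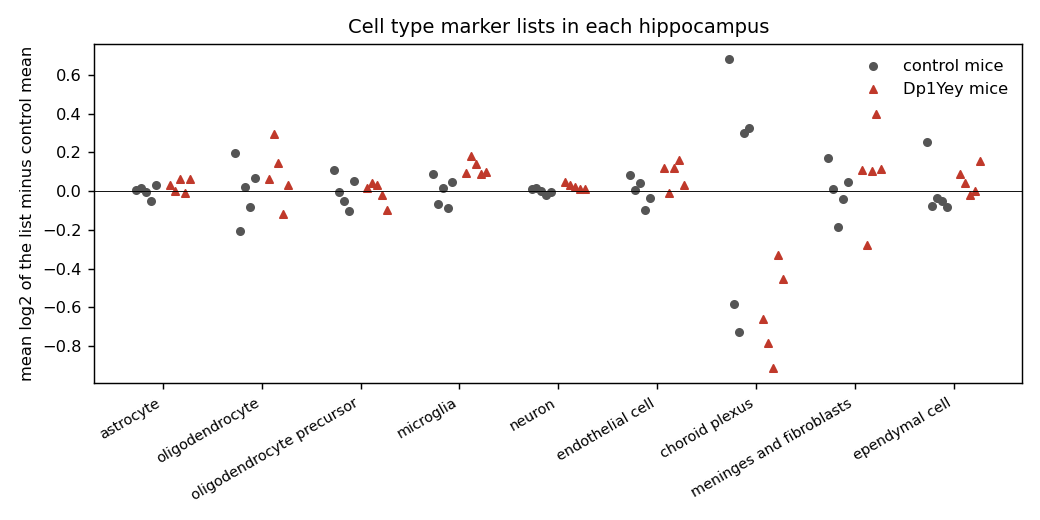
Mean log2 value of each of 9 cell type marker lists in each hippocampus, minus the control mean of the list (vertical axis), with control mice as grey circles and Dp1Yey mice as red triangles. The choroid plexus list spreads from 7.13 to 8.54 in control mice and from 6.95 to 7.53 in Dp1Yey mice before the control mean is subtracted, the widest spread of the 9 lists in control mice, and the astrocyte list overlaps between the groups.

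Across the 10 arrays the median log2 value ranged from 6.31 to 6.37 in Dp1Yey and from 6.35 to 6.44 in control mice, and the interquartile range from 3.47 to 3.53 and from 3.40 to 3.51. With this range as a covariate the differences of Elovl2 and Lcat were 0.30 and 0.56, and without control replicates 1 and 2 they were 0.29 and 0.53.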

How the data were processed

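Hippocampal RNA of 10 mice, 5 Dp1Yey and 5 control, was hybridised to 10 arrays, and the mice were grouped by their sample labels. The authors deposited log2 values made by RMA (background correction, quantile normalisation, then a summary to probe sets). RMA, limma and mm10 are named in the submitters' processing notes. The set of arrays that RMA was run on is not stated there, and no scanner file was used. The labels and the study's text also differ in the amount of input RNA, which was not settled. Arrays give no read depth, and their number limits the precision.

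Of 35556 probe sets, 21789 had 1 gene symbol and 1621 several, and 12146 were unnamed here. A gene was represented by its brightest probe set of 1 symbol, which gave 19938 genes. RefSeq's GRCm38.p6 annotation held 19852 of their Entrez identifiers. The background level (log2 5.45) was taken from 1015 olfactory receptor genes, at the 90th percentile of their means. The fit used lmFit and eBayes of limma 3.58.1 (R 4.3.3), with group as its term and two-sided p-values, with Benjamini-Hochberg adjustment over all genes and a call at an adjusted p under 0.05. The p-values measure the spread between mice, with 1 array each. The code was checked on simulated arrays, drawn 20 times and judged on the mean over the draws after a single draw had proved too variable. Both raw and shrunken spreads were tried in the simulation, whose noise was independent between genes and arrays. It therefore could not show how shifts shared by many genes of an array affect the calls.

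The members, the lists and the rule for named genes were chosen with earlier results of these data known. The rule took all 10 members, the called genes of each pathway list or else its gene of smallest p, the 5 genes above background most like Elovl2 and Lcat by r, and a few defining markers. 1 of those markers is not reported here. Promoter windows came from the RefSeq table, which held 9 of the 10 members. Alternatives were other normalisations, filters, probe set summaries and variance models, the replicate number as a block, the interquartile range as a covariate, arrays left out, and the study's rank statistic, rewritten here.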

Additional observations from a re-analysis of the deposited data

Results flagged for a closer look

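Abca1 had an array far from the others of its group on both sides. Dp1Yey replicate 5 lay at a log2 value of 8.309, with the other 4 Dp1Yey mice between 8.501 and 8.57. Control replicate 1 lay at 8.827, with the other 4 control mice between 8.49 and 8.578. These were 2 of 24 groups of 5 arrays examined for such a gap, and chance gives about 1 in 20.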

How the results depend on the processing

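The count of called genes among the 7 members chosen by function was 0 in every alternative listed, the rank statistic included. The count over all genes, 159, became 308 with median centring, 94 with the replicate block, 46 with a term for the spread (interquartile range) of each array, 689 with the rank statistic and 70 to 232 when 1 array was left out, lowest without Dp1Yey replicate 1 (87), 2 (86) or 3 (70) or control replicate 4 (77). The count of called pathway genes, 3, became 1 with that term and 10 with the rank statistic, and 1 to 4 when 1 array was left out (1 without Dp1Yey replicate 2, 3 or 5 or control replicate 2, 3 or 4). The cause was not tested. Elovl6 changed sign with median centring (0.028) and ranged from -0.045 to 0.022 when 1 array was left out. The other 8 members kept their direction in all 20 alternatives of the fit, and Elovl2 was 0.35 with median centring. Same-numbered arrays did not deviate together (r -0.33 to 0.22), so the numbers were not taken as pairs, and the replicate block changed no call of these 7.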
